A study of Mus musculus with 4 samples.

Results

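The receptor genes for cytokines that were followed through the maturation of mouse thymocytes were Il7r, Il4ra, Il21r, Il6ra, Il6st, Ifngr1, Ifnar1, Ifnar2, Tgfbr1 and Tgfbr2, 10 of the 33696 genes in the expression matrices. They were listed by name and not by a threshold on measured values, with earlier results of these data known. Thymocytes sorted for CD4 and CCR7 were read in droplets with a 3' single-cell RNA kit, in 1 library from Cgas KO mice and 1 library from WT mice. Cgas KO mice carried Cd4Cre and Cgas fl/fl alleles, and WT mice carried Cd4Cre alone, so the Cre transgene was shared. Cd4-Cre deletes in the T lineage once thymocytes become double positive for CD4 and CD8, so other cells of the thymus keep Cgas. Age, sex and the number of mice behind each library were not given in the sources used here. Cgas encodes the cytosolic DNA sensor cGAS. Its RNA stood at 2.99 CPM in Cgas KO (213 UMIs) and at 4.59 CPM in WT (326 UMIs) over the barcodes analysed. CPM are the unique molecular identifiers (UMIs) of a gene per 1e+06 UMIs of a group of barcodes. Which exons are floxed is not given, so reads at the 3' end need not fall in the deleted part and do not check the genotype.

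Barcodes with at least 2000 UMIs, at least 500 genes and at most 10% mitochondrial UMIs were kept, 14381 in Cgas KO and 12929 in WT. Each was placed in the first gate it met, in the order Foxp3+, Rag1+, Cd8 lineage, S1pr1+ and Itm2a+ S1pr1-, where 1 UMI of the gene was enough. The Cd8 lineage gate asked for at least 2 UMIs of Cd8a and Cd8b1 together and no Cd4 UMI. Rag1+ barcodes numbered 488 in Cgas KO and 530 in WT. Itm2a+ S1pr1- barcodes numbered 6484 in Cgas KO and 5604 in WT, and S1pr1+ barcodes 4525 in Cgas KO and 3958 in WT. The Cd8 lineage gate held 1366 barcodes in Cgas KO and 1377 in WT, and the Foxp3+ gate 378 in Cgas KO and 514 in WT. Itm2a marks thymocytes soon after positive selection, and S1pr1 encodes the receptor through which mature thymocytes leave the thymus. The 5 gates thus held 13241 barcodes in Cgas KO and 11983 in WT, and the rest met none of the gates.

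Marker lists were summed without the genes that define the gates, so that the gate rule does not set the sums. The Rag1+ double-positive-like list then had 3544 CPM in Cgas KO and 3760 CPM in WT Rag1+ barcodes, and at most 846 CPM in any other gate. The mature CD4 list had 1213 CPM in Rag1+, 2128 CPM in Itm2a+ S1pr1- and 4099.9 CPM in S1pr1+ barcodes of Cgas KO, and 1274, 1986 and 3869 CPM in WT, with 4024 CPM in Cgas KO and 3956 CPM in WT Foxp3+ barcodes. The CD8 list had 418 CPM in Cgas KO and 452 CPM in WT Cd8 lineage barcodes and at most 87.1 CPM elsewhere. The regulatory T cell list had 2658 CPM in Cgas KO and 2397 CPM in WT Foxp3+ barcodes and at most 927 CPM elsewhere. The semi-mature CD4 list did not single out its gate, with 2106 CPM in Itm2a+ S1pr1- against 2175 CPM in Rag1+ barcodes of Cgas KO and 1962 against 2234 CPM in WT, so that gate is called by its rule. Cd4 was absent from the Cd8 lineage gate by its rule, although the sort was for CD4+ cells. The median barcode of a gate held 4031.5 to 4695.5 UMIs in Cgas KO and 3488.5 to 5220.5 UMIs in WT. It was deeper in WT in every gate but Rag1+, where it held 4031.5 UMIs in Cgas KO and 3488.5 in WT. Both libraries shared 276 barcode sequences, 1.92% of the kept barcodes in Cgas KO and 2.13% in WT. The erythroid list stood apart in 1 gate, at 207 CPM in Cgas KO S1pr1+ barcodes against 2.63 CPM in WT. There, 1 barcode held 2600 of its 5157 UMIs. With 1 library per genotype no test was possible, so no p-value is given, and every 95% interval below covers counting error only.

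Receptors of these families signal through Janus kinases and STAT proteins, except those for TGF-beta, which are serine and threonine kinases that act on SMAD proteins. IL-7 receptor alpha pairs with the common gamma chain, is low in double-positive thymocytes and returns with positive selection, where it supports survival and the CD8 fate. IL-6 binds IL-6 receptor alpha, and the complex signals through gp130, the product of Il6st. TGF-beta signalling supports the survival of young regulatory T cells in the thymus.

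Promoters of 3 members are shown because these genes differed the most between stages or lineages in what follows. Each is the RefSeq window from 250 bases before to 50 bases after the annotated start in build GRCm38.p6, written 5' to 3' on the gene's own strand. Capitals mark the motif matches that a search of 8 motifs on both strands found. Il7r lies on the minus strand at chr15:9529827-9530126, Il6ra on the minus strand at chr3:89913147-89913446 and Ifngr1 on the plus strand at chr10:19591699-19591998.
Il7r: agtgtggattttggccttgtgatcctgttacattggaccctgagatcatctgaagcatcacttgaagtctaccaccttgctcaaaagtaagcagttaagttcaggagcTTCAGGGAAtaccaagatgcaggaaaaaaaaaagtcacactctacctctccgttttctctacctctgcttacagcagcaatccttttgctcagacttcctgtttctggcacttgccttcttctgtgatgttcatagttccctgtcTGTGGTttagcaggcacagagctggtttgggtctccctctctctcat
Il6ra: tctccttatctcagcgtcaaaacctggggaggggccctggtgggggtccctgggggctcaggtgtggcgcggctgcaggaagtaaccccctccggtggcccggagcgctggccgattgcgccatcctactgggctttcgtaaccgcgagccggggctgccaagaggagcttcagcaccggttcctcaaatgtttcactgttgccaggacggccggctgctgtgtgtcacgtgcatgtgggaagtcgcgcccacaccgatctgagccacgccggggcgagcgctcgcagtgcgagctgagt
Ifngr1: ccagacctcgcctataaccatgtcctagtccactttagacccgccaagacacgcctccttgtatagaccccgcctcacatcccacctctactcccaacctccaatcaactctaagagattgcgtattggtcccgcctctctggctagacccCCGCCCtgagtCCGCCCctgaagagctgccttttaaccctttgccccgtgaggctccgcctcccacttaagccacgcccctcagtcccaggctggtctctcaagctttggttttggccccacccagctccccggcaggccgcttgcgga

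Counting the start base as 0, the Il7r window held 1 TTCNNNGAA, the palindrome that STAT proteins bind, at -142 to -134, and 1 TGTGGT, a RUNX motif, at 3 to 8. The Ifngr1 window held 2 copies of GGGCGG, a GC box, read on the other strand at -99 to -94 and at -88 to -83. The Il6ra window, 66% G and C, held none of the 8. Of 32851 windows of this length, TTCNNNGAA occurred in 8.30%, TGTGGT in 16.8%, GGGCGG in 35.7%, CCGGAAG (ETS) in 8.86%, GTAAACA (FOXO) in 3.65%, an interferon response element in 3.44%, TATAAA in 13.6% and AGGTCA (nuclear receptors) in 16.3%. All 10 members had a window, 11 in all since Tgfbr1 had 2. TTCNNNGAA was also found in the windows of Ifnar1 and Ifnar2. GTAAACA was found in that of Il21r, where it overlapped a TGTGGT match. By position, Il4ra and Il21r are neighbours on chromosome 7, and Ifnar2, Il10rb, Ifnar1 and Ifngr2 follow each other on chromosome 16.

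Il7r was low in Rag1+ thymocytes and high in both later CD4 stages. In Cgas KO it stood at 99.3 CPM in Rag1+, 310.4 CPM in Itm2a+ S1pr1- and 277 CPM in S1pr1+ barcodes. In WT it stood at 129.5 CPM in Rag1+, 318 CPM in Itm2a+ S1pr1- and 321 CPM in S1pr1+ barcodes. The step up lay at the first transition in both libraries. Itm2a+ S1pr1- barcodes exceeded Rag1+ barcodes 3.12-fold in Cgas KO (interval 2.77 to 3.54) and 2.45-fold in WT (2.22 to 2.72), and no alternative setting brought either ratio under 2.09. At the second transition the ratio of S1pr1+ to Itm2a+ S1pr1- barcodes was 0.892 in Cgas KO (0.866 to 0.920) and 1.01 in WT (0.982 to 1.04).

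Both other lineages carried less Il7r than the CD4 barcodes, which are the Itm2a+ S1pr1- and S1pr1+ gates together. Neither of these gates asked for a Cd4 UMI. In Cgas KO 4857 of 6484 Itm2a+ S1pr1- and 3178 of 4525 S1pr1+ barcodes had one, and in WT 4331 of 5604 and 2887 of 3958. The Cd8 lineage had 139 CPM in Cgas KO and 157 CPM in WT, 0.469 and 0.491 of the CD4 level. Foxp3+ barcodes had 175 CPM in Cgas KO and 197 CPM in WT, 0.591 and 0.616 of it. These orders held when barcodes of the same S1pr1 state were set side by side. Among barcodes without S1pr1, the Cd8 lineage stood at 0.425 of the CD4 level in Cgas KO and 0.472 in WT. Among those with S1pr1 the ratios were 0.653 in Cgas KO (interval 0.557 to 0.760) and 0.647 in WT (0.554 to 0.751), so the gap was narrower there.

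**Figure D1:**
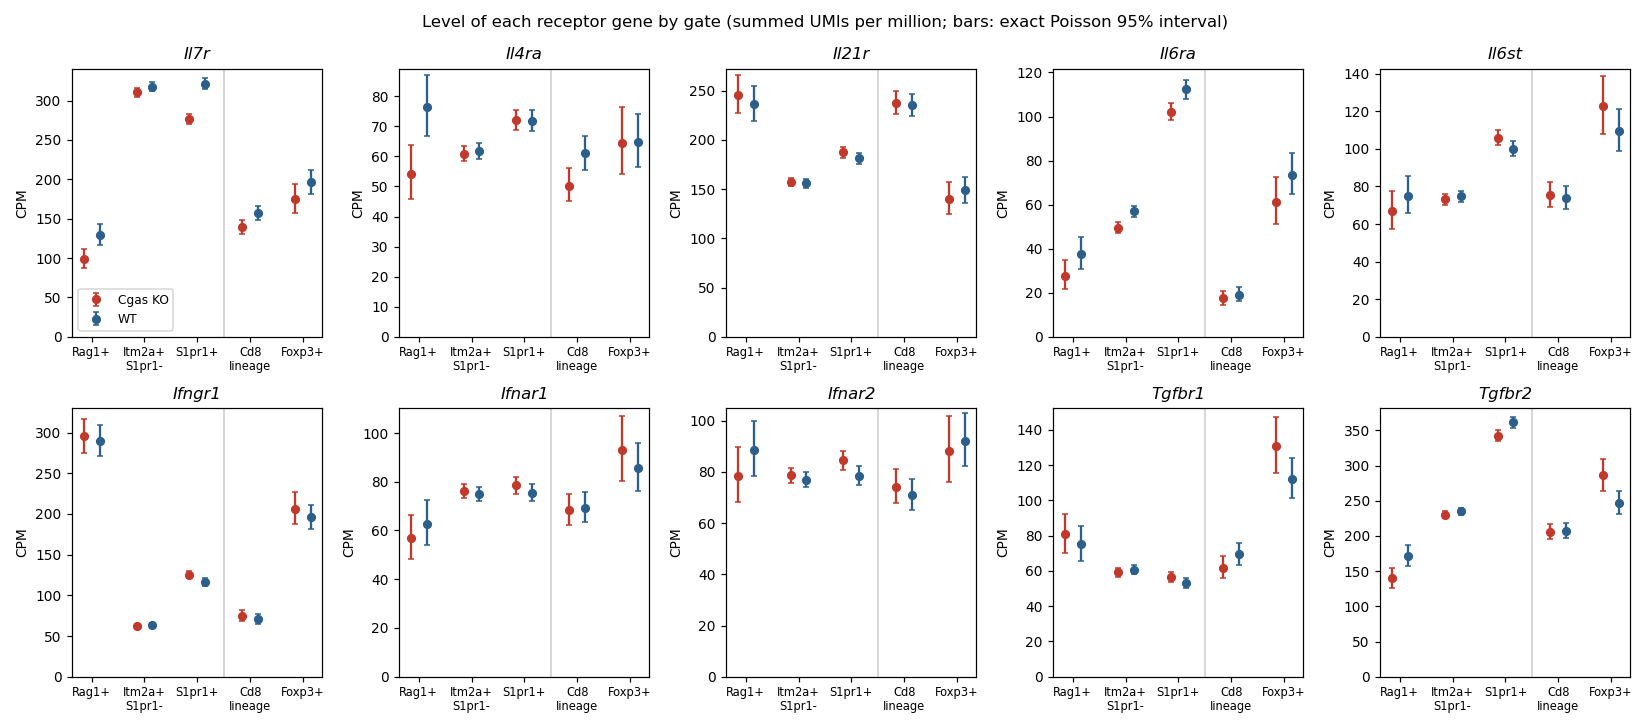
Levels of the 10 receptor genes in CPM (vertical axis of each panel) in 5 gates of barcodes (horizontal axis), Cgas KO in red left of WT in blue, points with exact 95% Poisson intervals. Il7r steps up after Rag1+, and Il6ra and Tgfbr2 are higher in S1pr1+ than in Rag1+ and Itm2a+ S1pr1- barcodes. Ifngr1 is highest in Rag1+ at 295 CPM in Cgas KO and 289.9 CPM in WT, lowest in Itm2a+ S1pr1- barcodes and high again in Foxp3+ barcodes.

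Il4ra, the alpha chain of the IL-4 and IL-13 receptors, stayed in a narrow range in the main setting. Cgas KO barcodes had 54.2 CPM in Rag1+, 60.9 CPM in Itm2a+ S1pr1- and 72.1 CPM in S1pr1+ gates, and WT barcodes had 76.5, 61.6 and 71.8 CPM in the same order. In that setting it differed by under 1.5-fold between these stages and between each lineage and the CD4 barcodes. The S1pr1+ level exceeded that of Itm2a+ S1pr1- 1.18-fold in Cgas KO (1.11 to 1.26) and 1.16-fold in WT (1.09 to 1.24). The Cd8 lineage had 50.3 CPM in Cgas KO and 61.0 CPM in WT, and Foxp3+ barcodes had 64.5 CPM in Cgas KO and 64.8 CPM in WT. Itm2a+ S1pr1- over Rag1+ barcodes gave a ratio of 1.13 in Cgas KO (0.951 to 1.34) and of 0.806 in WT (0.702 to 0.928). Some alternatives passed 1.5-fold. The ratio reached 0.568 in WT for this step, and 1.55 in Cgas KO and 0.651 in WT for S1pr1+ over Rag1+ barcodes. For Cd8 lineage over CD4 barcodes of Cgas KO it reached 0.613.

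Il21r, whose product also pairs with the common gamma chain, ran against Il7r from Rag1+ to Itm2a+ S1pr1- barcodes and in the Cd8 lineage. It had 246 CPM in Rag1+, 157 CPM in Itm2a+ S1pr1- and 187 CPM in S1pr1+ barcodes of Cgas KO. WT barcodes had 237, 156 and 181 CPM in the same order. Itm2a+ S1pr1- barcodes held 0.638 of the Rag1+ level in Cgas KO (0.588 to 0.693) and 0.658 in WT (0.608 to 0.713). The Cd8 lineage was close to Rag1+ barcodes, with 238 CPM in Cgas KO and 235 CPM in WT. Set against CD4 barcodes without S1pr1, Cd8 lineage barcodes without S1pr1 had 1.53-fold more in Cgas KO (1.44 to 1.63) and 1.52-fold more in WT (1.44 to 1.61). With S1pr1 on both sides the ratio was 1.19 in Cgas KO (1.03 to 1.37) and 1.23 in WT (1.06 to 1.43), and over the whole lineage it was 1.40 in Cgas KO (1.33 to 1.48) and 1.42 in WT (1.34 to 1.49), short of 1.5-fold. Foxp3+ barcodes were at the low end, with 140.4 CPM in Cgas KO and 149 CPM in WT. Like Il7r, Il21r was there below the CD4 level, at 0.828 of it in Cgas KO (0.735 to 0.930) and 0.896 in WT (0.817 to 0.979).

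Genes around these 3 receptors include the shared chain and its kinase. Il2rg, the common gamma chain, had 416 CPM in Rag1+, 691 CPM in Itm2a+ S1pr1- and 589.9 CPM in S1pr1+ barcodes of Cgas KO, and 458, 723 and 603 CPM in WT. Jak3, the kinase bound to that chain, stood at 41.8 CPM in Itm2a+ S1pr1- against 19.8 CPM in Rag1+ barcodes of Cgas KO and at 45.3 against 26.2 CPM in WT. Of 12 Janus kinase and STAT genes, all measured, 4 were at least 1.5-fold higher and none lower at this step in Cgas KO, beside 12.2% of all genes higher and 14.7% lower, and 2 and none in WT, beside 9.38% and 13.9%. The list's median log2 ratio was 0.46 in Cgas KO and 0.25 in WT, beside -0.06 and -0.08 over all genes. Lists of pathway genes are described by such counts, which were not tested.

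Survival genes downstream of IL-7 split in 2 directions at the step from Rag1+ to Itm2a+ S1pr1-. Of 12 measured, 3 were higher and 5 lower in Cgas KO, beside 12.2% of all genes higher and 14.7% lower, and 3 higher and 4 lower in WT, beside 9.38% and 13.9%. The list's median log2 ratio was -0.21 in Cgas KO and -0.30 in WT, beside -0.06 and -0.08 over all genes. Bcl2 was among the higher ones, at 526 CPM in Itm2a+ S1pr1- against 147 CPM in Rag1+ barcodes of Cgas KO and 519 against 205 CPM in WT. Bcl2l1, which encodes BCL-XL and is known in double-positive thymocytes, was lower, at 45.3 CPM in Itm2a+ S1pr1- against 121 CPM in Rag1+ barcodes of Cgas KO and 48.1 against 116 CPM in WT. Cish, a STAT5 target that dampens cytokine signals, was higher, at 26.1 CPM in Itm2a+ S1pr1- against 8.96 CPM in Rag1+ barcodes of Cgas KO and 29.0 against 13.8 CPM in WT. Other members of the list went the other way from Cish, among them Pim1, a kinase gene induced by STAT5, with 50.3 CPM in Itm2a+ S1pr1- against 106 CPM in Rag1+ barcodes of Cgas KO and 43.4 against 93.0 CPM in WT. Of 17 measured inhibitors of cytokine signalling, 2 were higher and 2 lower at this step in Cgas KO, and 2 and 1 in WT. Socs1, one of them, had 170.4 CPM in Itm2a+ S1pr1- against 252 CPM in Rag1+ barcodes of Cgas KO and 154 against 227 CPM in WT, short of 1.5-fold in both. These 2 lists share Socs1 and Cish.

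Of 17 measured transcription factors tied to Il7r, 2 were higher and 6 lower in Itm2a+ S1pr1- over Rag1+ barcodes of Cgas KO, and 1 and 5 in WT. The shares that were higher were no larger than those of all genes, 12.2% in Cgas KO and 9.38% in WT, and those of all genes that were lower were 14.7% and 13.9%. Gfi1, known as a repressor of Il7r, had 19.1 CPM in Itm2a+ S1pr1- against 82.5 CPM in Rag1+ barcodes of Cgas KO and 18.5 against 63.1 CPM in WT. Foxo1, an activator of Il7r, differed at the later step, with 304 CPM in S1pr1+ against 171 CPM in Itm2a+ S1pr1- barcodes of Cgas KO and 283 against 162 CPM in WT. Klf2, which switches on S1pr1, had 1570.1 CPM in S1pr1+ against 738 CPM in Itm2a+ S1pr1- barcodes of Cgas KO and 1427 against 697 CPM in WT. Il7r itself did not pass 1.5-fold at that step. Runx3, the factor of the CD8 fate, stood at 198.6 CPM in the Cd8 lineage against 53.2 CPM in CD4 barcodes of Cgas KO and at 186 against 58.0 CPM in WT.

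**Figure D2:**
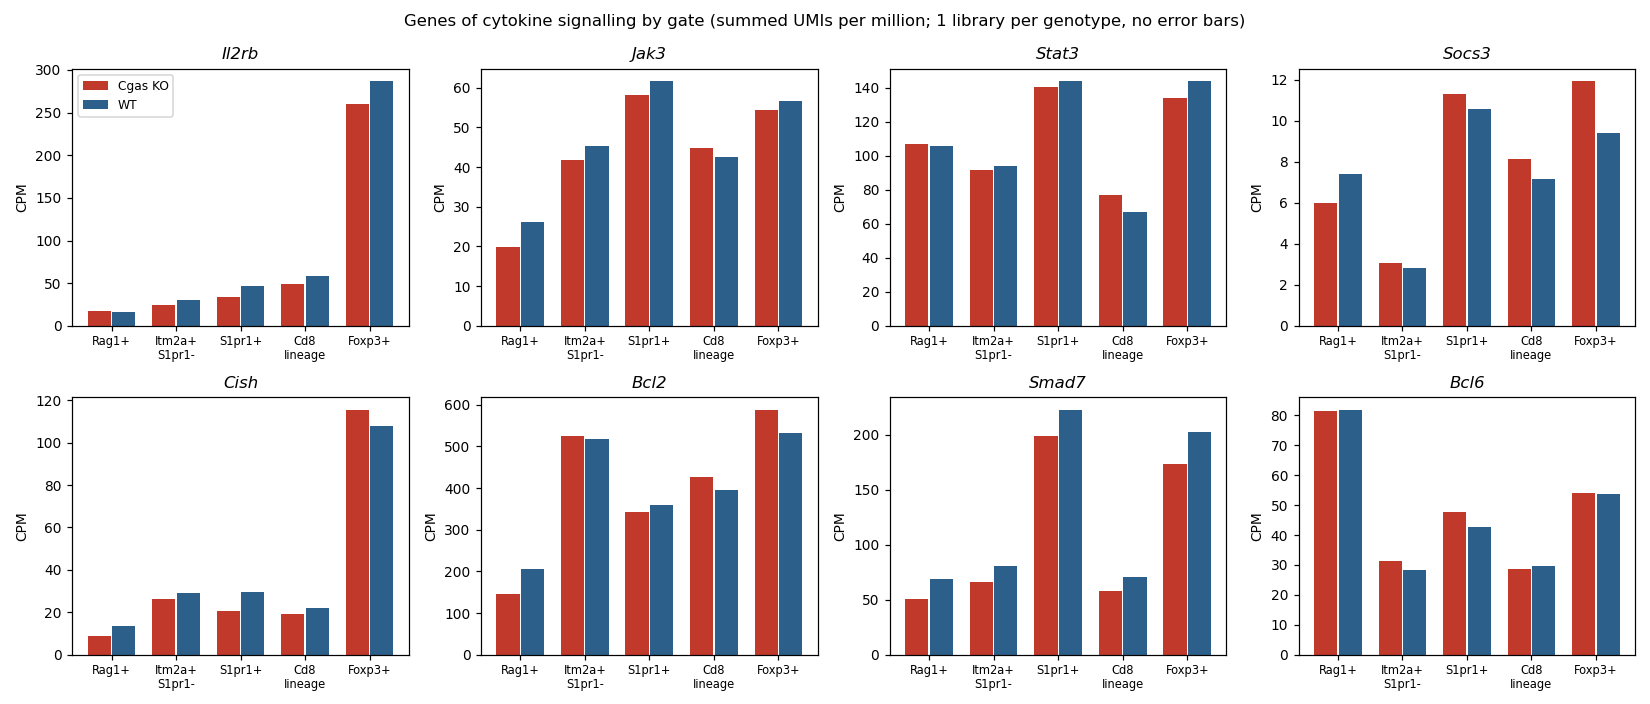
Levels in CPM (vertical axes) of 8 genes that act beside the receptors, in the 5 gates (horizontal axes), Cgas KO in red left of WT in blue. Bcl2 and Jak3 are low in Rag1+ barcodes, and Smad7 and Socs3 are higher in S1pr1+ than in Rag1+ and Itm2a+ S1pr1- barcodes. Bcl6, like Ifngr1, is highest in Rag1+ barcodes. Il2rb and Cish stand out in Foxp3+ barcodes, Il2rb with 260.2 CPM in Cgas KO and 287 CPM in WT.

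Il6ra had the widest relative span of the 2 gp130 receptor genes. Its level was 27.6 CPM in Rag1+, 49.6 CPM in Itm2a+ S1pr1- and 102 CPM in S1pr1+ barcodes of Cgas KO. In WT it was 37.6, 56.9 and 112 CPM in the same order. It was thus higher at each later stage in both libraries. The S1pr1+ level exceeded that of Itm2a+ S1pr1- 2.06-fold in Cgas KO (1.94 to 2.19) and 1.97-fold in WT (1.86 to 2.09), and that of Rag1+ 3.70-fold in Cgas KO (2.94 to 4.73) and 2.99-fold in WT (2.47 to 3.64). This last ratio ran from 2.75 to 6.52 in Cgas KO and from 2.59 to 8.71 in WT over the alternatives, highest when barcodes were thinned to 2000 UMIs. Thinned Rag1+ barcodes held few Il6ra UMIs, at 16.3 CPM over 337 barcodes in Cgas KO and 14.5 CPM over 380 in WT. Splitting S1pr1+ barcodes by an Itm2a UMI, a split chosen after the data were seen, those without had 115 CPM against 99.1 CPM with it in Cgas KO, and 124 CPM against 109.5 CPM in WT.

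The Cd8 lineage held the least Il6ra, with 17.5 CPM in Cgas KO (interval 14.4 to 21.0, 116 UMIs) and 19.1 CPM in WT (16.0 to 22.5, 139 UMIs), or 0.244 and 0.239 of the CD4 level. Free RNA, read from barcodes with too few UMIs to be cells, held Il6ra at 99.8 CPM in Cgas KO and 105 CPM in WT. Within the Cd8 lineage Il6ra again went with S1pr1. Barcodes with S1pr1 had 54.5 CPM against 11.4 CPM without it in Cgas KO, a ratio of 4.79 (3.25 to 7.01), and 44.9 against 15.7 CPM in WT, a ratio of 2.86 (1.92 to 4.19). They still stood below CD4 barcodes with S1pr1, at 0.534 of their level in Cgas KO and 0.400 in WT. These S1pr1+ Cd8 lineage barcodes are few, 142 in Cgas KO and 137 in WT. Foxp3+ barcodes with S1pr1 had 0.688 of the CD4 S1pr1+ level in Cgas KO (0.559 to 0.839) and 0.670 in WT (0.574 to 0.778). Without S1pr1, Foxp3+ barcodes had 40.4 CPM against 49.6 CPM in CD4 barcodes of Cgas KO, a ratio of 0.814 (0.530 to 1.197), and 69.4 against 56.9 CPM in WT, a ratio of 1.22 (0.937 to 1.56), so no order was resolved there.

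Il6st, the signalling chain, varied less than its partner. It had 66.9 CPM in Rag1+, 73.1 CPM in Itm2a+ S1pr1- and 106 CPM in S1pr1+ barcodes of Cgas KO, and 75.2, 74.7 and 100.1 CPM in WT. The first 2 stages were within counting error of each other and the last was higher. S1pr1+ barcodes exceeded Itm2a+ S1pr1- ones 1.45-fold in Cgas KO (1.37 to 1.53) and 1.34-fold in WT (1.27 to 1.42). The Cd8 lineage had 75.5 CPM in Cgas KO and 73.9 CPM in WT. Foxp3+ barcodes had 123 CPM in Cgas KO and 109 CPM in WT, 1.41 and 1.28 times the CD4 level. A difference counted as apart between stages and lineages only past 1.5-fold, so these Foxp3+ ratios did not in the main setting. S1pr1+ over Rag1+ barcodes did in Cgas KO, at 1.58 (1.36 to 1.85), but not in WT, at 1.33 (1.16 to 1.53). Over the alternatives this ratio reached 1.93 in Cgas KO and 1.57 in WT, and Foxp3+ over CD4 barcodes of Cgas KO reached 1.64.

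Of 9 measured gp130 and STAT3 targets, a list that includes Il6ra, 4 were at least 1.5-fold higher and none lower in S1pr1+ over Itm2a+ S1pr1- barcodes of each library, beside 4.34% of all genes higher and 4.77% lower in Cgas KO and 4.42% and 5% in WT. Besides Il6ra these were Socs3, the feedback inhibitor of gp130, with 11.3 CPM in S1pr1+ against 3.04 CPM in Itm2a+ S1pr1- barcodes of Cgas KO and 10.5 against 2.82 CPM in WT, then Bcl3 and Stat3. Stat3 had 140.5 CPM in S1pr1+ against 91.5 CPM in Itm2a+ S1pr1- barcodes of Cgas KO and 144 against 93.7 CPM in WT. The list's median log2 ratio was 0.34 in Cgas KO and 0.35 in WT, beside -0.08 over all genes in each. Stat3 was at 76.8 CPM in the Cd8 lineage against 112 CPM in CD4 barcodes of Cgas KO, short of 1.5-fold, and at 66.7 against 114 CPM in WT.

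Ifngr1, the ligand-binding chain of the IFN-gamma receptor, had the deepest dip of all members. Its level was 295 CPM in Rag1+, 61.7 CPM in Itm2a+ S1pr1- and 125 CPM in S1pr1+ barcodes of Cgas KO. WT barcodes had 289.9, 63.0 and 116 CPM in the same order. The middle stage held 0.209 of the Rag1+ level in Cgas KO (0.192 to 0.227) and 0.217 in WT (0.201 to 0.235). S1pr1+ barcodes then exceeded it 2.03-fold in Cgas KO (1.92 to 2.14) and 1.85-fold in WT (1.74 to 1.95). After thinning each barcode to 2000 UMIs, 40.8% of Rag1+ barcodes had an Ifngr1 UMI in Cgas KO and 46.0% in WT, against 11.9% and 12.2% of Itm2a+ S1pr1- barcodes. Unthinned, these shares were 60.5% and 66.2% against 25.5% and 27.8%. None of the gated states is known to lack Ifngr1, and free RNA held it at 99.2 CPM in Cgas KO and 107 CPM in WT.

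Among Rag1+ barcodes, Ifngr1 was high in those that carried further genes of the double-positive stage. Barcodes with a UMI of Dntt, Rag2, Arpp21 or Rmnd5a, a split chosen after the data were seen, had 312 CPM of Ifngr1 in Cgas KO (447 barcodes) and 306 CPM in WT (493 barcodes). The few without any of these had 60.9 CPM in Cgas KO (41 barcodes) and 78.2 CPM in WT (37 barcodes). For Il7r the order was the opposite, with 90.1 CPM with such a gene against 227 CPM without in Cgas KO, and 121 against 239 CPM in WT. The partner chain Ifngr2 ran the other way, with 78.1 CPM in Rag1+, 137 CPM in Itm2a+ S1pr1- and 118 CPM in S1pr1+ barcodes of Cgas KO and 64.8, 127 and 110.3 CPM in WT. So the stage lowest in Ifngr1 was the highest of the 3 in Ifngr2.

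Foxp3+ barcodes, the regulatory T cell lineage, carried 206 CPM of Ifngr1 in Cgas KO and 196 CPM in WT. That was 2.34 times the CD4 level in Cgas KO (2.12 to 2.58) and 2.30 times in WT (2.12 to 2.50). Without S1pr1 the ratio was 2.97 in Cgas KO and 2.44 in WT, and with S1pr1 1.73 and 1.82. Among Foxp3+ barcodes without S1pr1 of WT, dendritic cell markers summed to 737 CPM with 2 of 10 at 0, and in Cgas KO to 198.6 CPM with 5 of 10 at 0, and their part in these values was not tested. Within the Foxp3+ gate Ifngr1 was higher where Il2ra, the IL-2 receptor alpha chain, was detected. Barcodes with Il2ra had 295 CPM against 153 CPM without it in Cgas KO, a ratio of 1.93 (1.59 to 2.34), and 279 against 141 CPM in WT, a ratio of 1.99 (1.70 to 2.32). This split was also chosen after the data were seen.

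Ifnar1 and Ifnar2, the 2 chains of the type I interferon receptor, spanned narrower ranges than Ifngr1. Ifnar1 lay between 56.8 and 93.1 CPM over the 5 gates of Cgas KO and between 62.8 and 85.7 CPM in WT, lowest in Rag1+ and highest in Foxp3+ barcodes of both. Ifnar2 lay between 74.3 and 88.3 CPM in Cgas KO and between 71.0 and 92.1 CPM in WT, lowest in the Cd8 lineage and highest in Foxp3+ barcodes of both. Neither passed 1.5-fold in any stage or lineage comparison in the main setting. In S1pr1+ barcodes thinned to 2000 UMIs, both chains were seen together in 111 barcodes of Cgas KO, where independence gives 100.4, and in 84 of WT, where it gives 80.8. The other pairs of chains were close to independence in this gate as well, with observed over expected of 0.986 to 1.08. Smaller gates spread more. In Rag1+ barcodes Il7r and Il2rg were seen together in 41 of Cgas KO, where independence gives 31.5, and in 52 of WT, where it gives 42.2. Il6ra with Il6st ran from 0.306 in the Cd8 lineage of WT (2 barcodes) to 1.78 in Foxp3+ barcodes of Cgas KO (16 barcodes).

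Interferon-stimulated genes differed between stages. Of 29 measured in Cgas KO, 18 were at least 1.5-fold higher in Itm2a+ S1pr1- than in Rag1+ barcodes and none lower, and of 30 in WT 19 and none. All genes gave 12.2% higher and 14.7% lower in Cgas KO at this step, and 9.38% and 13.9% in WT. S1pr1+ over Itm2a+ S1pr1- barcodes had 11 higher in Cgas KO and 9 in WT, with none lower. Beside these, 4.34% and 4.42% of all genes were higher and 4.77% and 5% lower. Ly6a, an interferon-induced surface protein, had 65.8 CPM in S1pr1+ against 22.0 CPM in Itm2a+ S1pr1- barcodes of Cgas KO and 80.1 against 23.5 CPM in WT. The medians over the list at the first step were 0.89 in Cgas KO and 0.70 in WT on the log2 scale. Of these genes 7 were lower and none higher in Cd8 lineage over CD4 barcodes of Cgas KO, beside 8.81% and 4.69% of all genes. In WT 8 were lower and 1 higher, beside 9.29% and 5.17%. Samhd1 was lower in both, with 54.4 CPM in the Cd8 lineage against 258 CPM in CD4 barcodes of Cgas KO. In WT it had 74.2 against 303 CPM.

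Tgfbr2, the ligand-binding TGF-beta receptor, was higher at each later CD4 stage. It had 140.1 CPM in Rag1+, 230.4 CPM in Itm2a+ S1pr1- and 343 CPM in S1pr1+ barcodes of Cgas KO, and 172, 235 and 361 CPM in WT. Both libraries showed the same order. The S1pr1+ level was 2.45 times that of Rag1+ in Cgas KO (2.21 to 2.72) and 2.10 times in WT (1.92 to 2.30). The single steps lay around 1.5-fold, with 1.64 in Cgas KO and 1.37 in WT at the first, and 1.49 in Cgas KO and 1.54 in WT at the second. The Cd8 lineage had 206 CPM in Cgas KO and 208 CPM in WT. With S1pr1 it held 0.759 of the CD4 level in Cgas KO (0.665 to 0.862) and 0.726 in WT (0.633 to 0.830).

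Tgfbr1, the signalling partner, followed another course. Cgas KO barcodes had 80.7 CPM in Rag1+, 59.2 CPM in Itm2a+ S1pr1- and 56.4 CPM in S1pr1+ gates, and WT barcodes had 75.2, 60.7 and 53.1 CPM. It was marked by Foxp3+ barcodes, with 131 CPM in Cgas KO and 112 CPM in WT, 2.26 times the CD4 level in Cgas KO (1.99 to 2.55) and 1.95 times in WT (1.75 to 2.17). Both S1pr1 states showed it, with 2.07 in Cgas KO and 2.23 in WT without S1pr1, and 2.38 in Cgas KO and 1.95 in WT with S1pr1. Tgfbr2 in Foxp3+ barcodes had 286 CPM in Cgas KO and 247 CPM in WT. Without S1pr1 it had 278 CPM against 230.4 CPM in CD4 barcodes of Cgas KO, a ratio of 1.21 (1.03 to 1.40), and 227 against 235 CPM in WT, a ratio of 0.969 (0.841 to 1.11). With S1pr1 it stood below CD4 barcodes, at 0.846 of their level in Cgas KO (0.765 to 0.933) and 0.705 in WT (0.649 to 0.764). Foxp3+ barcodes with Il2ra had less Tgfbr2, at 247 CPM against 309 CPM without Il2ra in Cgas KO, short of 1.5-fold, and 174 against 295 CPM in WT.

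**Figure D3:**
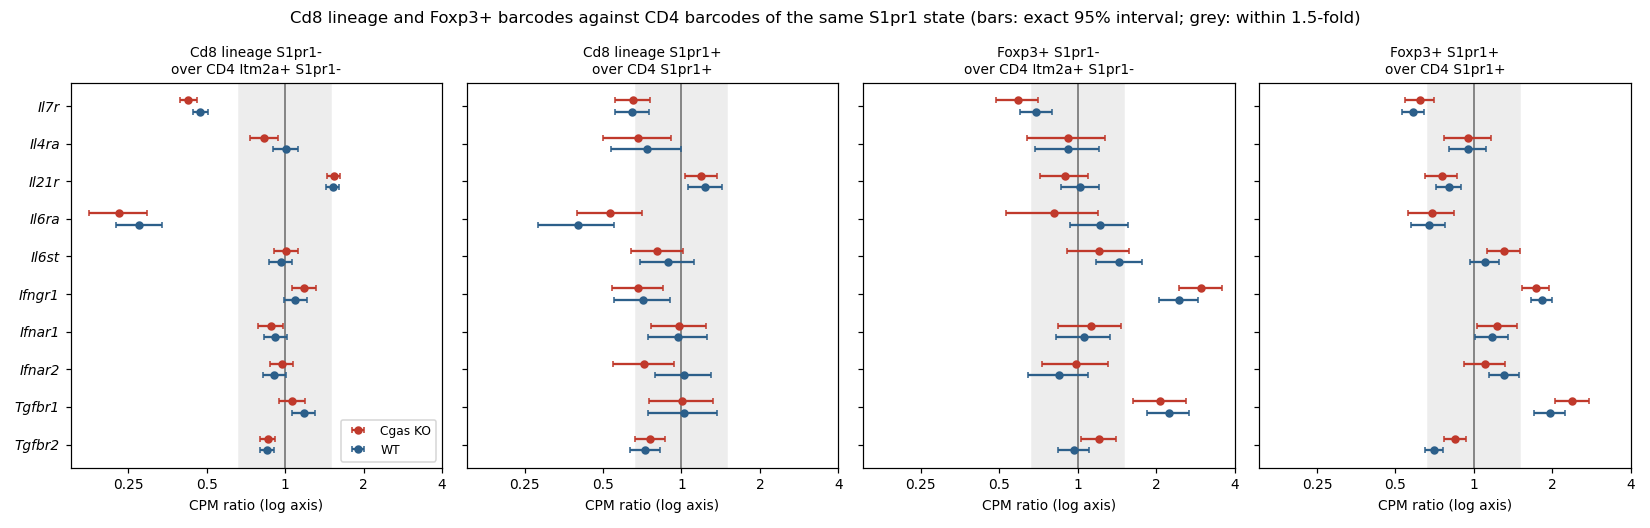
Ratios of CPM (horizontal axis, log scale) for each receptor gene between Cd8 lineage or Foxp3+ barcodes and CD4 barcodes of the same S1pr1 state, Cgas KO in red above WT in blue, with exact 95% intervals and a grey band for differences within 1.5-fold. Il6ra and Il7r lie left of the band in the Cd8 lineage, Il21r just right of it among barcodes without S1pr1, and Ifngr1 and Tgfbr1 right of it in Foxp3+ barcodes.

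Of 18 measured SMAD pathway genes, 3 were higher and 1 lower in S1pr1+ over Itm2a+ S1pr1- barcodes of Cgas KO, and 2 and 1 in WT. The 1 that was lower is close to the 4.77% of all genes in Cgas KO and 5% in WT, and 4.34% and 4.42% were higher. Smad7, the inhibitory SMAD that TGF-beta induces, had 198.8 CPM in S1pr1+ against 65.7 CPM in Itm2a+ S1pr1- barcodes of Cgas KO and 223 against 80.5 CPM in WT. Smurf2, a ubiquitin ligase that acts with it, had 168 CPM in S1pr1+ against 94.2 CPM in Itm2a+ S1pr1- barcodes of Cgas KO and 184 against 100.4 CPM in WT. In the Cd8 lineage Tgfbr2 stood at 0.743 of the CD4 level in Cgas KO and 0.723 in WT, short of 1.5-fold. There 5 of 18 SMAD pathway genes were lower and 2 higher in Cgas KO, beside 8.81% and 4.69% of all genes, and 5 and 1 in WT, beside 9.29% and 5.17%. Smad7 had 57.8 CPM in the Cd8 lineage against 121 CPM in CD4 barcodes of Cgas KO and 70.6 against 139 CPM in WT. Lrrc32 (GARP, which holds latent TGF-beta at the surface) had 43.0 CPM in Foxp3+ against 2.19 CPM in CD4 barcodes of Cgas KO and 30.5 against 2.95 CPM in WT. Itgb8, an integrin chain that frees it, had 24.8 CPM in Foxp3+ against 1.82 CPM in CD4 barcodes of Cgas KO and 32.9 against 2.02 CPM in WT.

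Counted together, the members were past the fold more often than all genes at some steps and about as often at others. In Itm2a+ S1pr1- over Rag1+ barcodes, 3 of 10 passed 1.5-fold upwards in Cgas KO (Il7r, Il6ra and Tgfbr2), as did 12.2% of all genes, and 2 in WT (Il7r and Il6ra), as did 9.38%. Il21r and Ifngr1 were lower in both, beside 14.7% of all genes in Cgas KO and 13.9% in WT. In S1pr1+ over Itm2a+ S1pr1- barcodes, 2 were higher in Cgas KO (Il6ra and Ifngr1) beside 4.34% of all genes, and 3 in WT (with Tgfbr2) beside 4.42%. None was lower, beside 4.77% in Cgas KO and 5% in WT. In S1pr1+ over Rag1+ barcodes, 4 were higher in Cgas KO beside 12.2% and 3 in WT beside 10.3%, and only Ifngr1 was lower, beside 18.3% and 16.7%. All 10 members had at least 100 UMIs in each comparison, the minimum for a gene to be counted.

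In the Cd8 lineage over CD4 barcodes no member was 1.5-fold higher, beside 4.69% of all genes in Cgas KO and 5.17% in WT. Il7r and Il6ra were lower in both libraries, beside 8.81% in Cgas KO and 9.29% in WT. In Foxp3+ over CD4 barcodes Ifngr1 and Tgfbr1 were higher in both, beside 7.08% in Cgas KO and 6.26% in WT, and Il7r was lower in both, beside 10.5% and 7.23%. A single member of 10 is close to that last background. Of 20 measured partner chains, 4 were higher and 2 lower in Foxp3+ over CD4 barcodes of Cgas KO, beside 7.08% and 10.5% of all genes. In WT 5 were higher and 3 lower, beside 6.26% and 7.23%. The 2 lower in Cgas KO are close to the background. Il2ra, a Foxp3 target, had 219.6 CPM in Foxp3+ against 8.71 CPM in CD4 barcodes of Cgas KO and 183 against 11.7 CPM in WT. Il2rb, a chain of the IL-2 and IL-15 receptors, had 260.2 CPM in Foxp3+ against 28.1 CPM in CD4 barcodes of Cgas KO and 287 against 36.5 CPM in WT. Cish, an IL-2 target, had 116 CPM in Foxp3+ against 23.8 CPM in CD4 barcodes of Cgas KO and 108 against 29.1 CPM in WT.

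Shares of barcodes, each thinned to 2000 UMIs, gave the same orders as the CPM for Il7r, Il6ra and Tgfbr2 from Rag1+ to S1pr1+ barcodes. An Il6ra UMI was found in 3.89% of Rag1+, 8.88% of Itm2a+ S1pr1- and 18.5% of S1pr1+ barcodes of Cgas KO, and in 4.53%, 10.2% and 20.5% in WT. The Cd8 lineage had the lowest shares, 3.07% in Cgas KO and 3.85% in WT. Unthinned, 38.1% of S1pr1+ and 6.44% of Cd8 lineage barcodes had one in Cgas KO, and 42.6% and 8.35% in WT. Tgfbr2 was found in 23.4%, 36.3% and 48.6% along the same stages of Cgas KO and in 26.6%, 36.6% and 50.2% in WT. On average a thinned S1pr1+ barcode showed 2.27 of the 10 members in Cgas KO and 2.31 in WT, and a thinned Cd8 lineage barcode 1.70 in each. At this depth none of the 10 was seen in 7.65% of S1pr1+ barcodes in Cgas KO and 6.57% in WT, and in 14.3% of Cd8 lineage barcodes in Cgas KO and 14.0% in WT.

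Genes whose levels ran most like each member over the 10 groups of gate and library were found among 7333 genes by Pearson's r of log2(CPM + 1). The groups share 2 libraries, so r is a description. For Ifngr1 these were Capn3 (r 0.981), Bcl6 (0.979) and Bcas3 (0.974). Bcl6, a transcriptional repressor, had 81.4, 31.2 and 47.5 CPM in Rag1+, Itm2a+ S1pr1- and S1pr1+ barcodes of Cgas KO and 81.9, 28.4 and 42.7 CPM in WT. The likest genes of other members follow. For Il6ra these were Tbc1d1 (0.984), Rassf3 (0.972) and Igfbp4 (0.968), and for Il7r Tmem63a, Mink1 and Itgb3 (0.956 to 0.957). Tgfbr2 was most like Apol7e (0.990), and Tgfbr1 most like Mbnl3 (0.982). Among the members, Ifnar1 and Il6st were alike (0.842), as were Il6ra and Tgfbr2 (0.781), while Tgfbr1 and Tgfbr2 were not (-0.160).

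The question of the study, how cGAS affects transcription in these cells, was addressed by comparing the libraries gate by gate. In Rag1+ barcodes 4 members were at least 1.2-fold lower in Cgas KO and none higher, beside 14.4% of all genes lower and 12.9% higher. Il4ra had 54.2 CPM in Cgas KO and 76.5 CPM in WT, a ratio of 0.708 (0.571 to 0.875). Il7r had 99.3 CPM in Cgas KO and 129.5 CPM in WT (0.767, interval 0.654 to 0.899). Both intervals exclude 1, as did those of Tgfbr2 at 0.815 (0.712 to 0.933) and Il6ra at 0.735 (0.541 to 0.995). Ifngr1 and Il21r had ratios of 1.02 (0.924 to 1.12) and 1.04 (0.933 to 1.16).

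The Rag1+ gate differed between the libraries in more than these genes. Barcodes with at least 3 UMIs of the cell cycle list, a cutoff on raw counts, made up 25.2% in Cgas KO and 18.1% in WT. Of the 12 cell cycle genes 10 passed 1.2-fold upwards in Cgas KO and none downwards, beside 12.9% and 14.4% of all genes. This was not confined to the Rag1+ gate. Of 12, 9 were higher in the Cd8 lineage (beside 7.79%), 5 in Itm2a+ S1pr1- (6.05%) and 4 in S1pr1+ barcodes (5.73%), with none lower. In Foxp3+ barcodes none of 10 was higher and 1 was lower, beside 9.76% and 10.9%. Without barcodes with at least 3 such UMIs, the Rag1+ ratio for Il7r was 1.02, for Tgfbr2 0.889 and for Il6ra 0.861, while Il4ra stayed at 0.779. Where each barcode counted alike, the ratios were 0.941 for Il7r, 0.908 for Tgfbr2, 0.915 for Il6ra and 0.705 for Il4ra. Thinned to 2000 UMIs, Il6ra stood at 1.13 and Il4ra at 0.684. That Il6ra value has no interval and rests on few UMIs. Its levels were 16.3 CPM over 337 barcodes of Cgas KO and 14.5 CPM over 380 of WT. Over all alternatives Il4ra ran from 0.666 to 0.779, and it alone of the 4 stayed at least 1.2-fold lower in the 5 settings drawn. Jak3 in this gate had 19.8 CPM in Cgas KO and 26.2 CPM in WT.

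**Figure D4:**
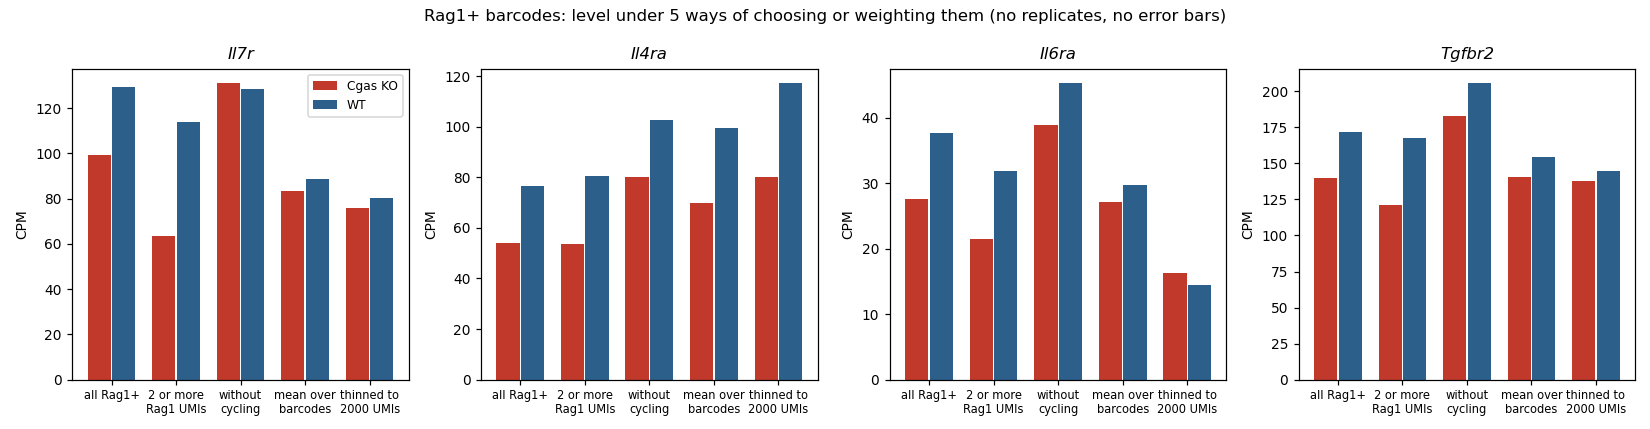
Levels in CPM (vertical axes) of Il7r, Il4ra, Il6ra and Tgfbr2 in Rag1+ barcodes under 5 settings (horizontal axes), Cgas KO in red left of WT in blue. The bars of Il4ra stay apart throughout, with Cgas KO below WT, while those of Il7r meet without cycling barcodes (131 CPM in Cgas KO and 128 CPM in WT).

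In the larger gates the members differed little between the libraries. In Itm2a+ S1pr1- barcodes none passed 1.2-fold, beside 6.05% of all genes higher and 5.01% lower, and all ratios but that of Il6ra lay between 0.974 and 1.02. Il6ra stood lower, with 49.6 CPM in Cgas KO and 56.9 CPM in WT, a ratio of 0.871 (0.816 to 0.930). In S1pr1+ barcodes none passed it either, beside 5.73% higher and 5.59% lower. There Il7r had 277 CPM in Cgas KO and 321 CPM in WT, a ratio of 0.862 (0.834 to 0.891). It was 0.868 with Itm2a and 0.841 without, and 0.829 to 0.873 over the alternatives. Intervals also excluded 1 in this gate for Il6ra at 0.910 (0.862 to 0.961) and Tgfbr2 at 0.948 (0.920 to 0.977). The same held upwards for Ifngr1 at 1.08 (1.02 to 1.13) and Ifnar2 at 1.08 (1.01 to 1.15). Erythroid markers differed in this gate as given above, at 127 CPM with Itm2a and 528 CPM without in Cgas KO, and their part was not tested. Cish had 20.5 CPM in Cgas KO and 29.4 CPM in WT S1pr1+ barcodes. It was 1 of 17 measured inhibitors past 1.2-fold downwards, close to the 5.59% of all genes.

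**Figure D5:**
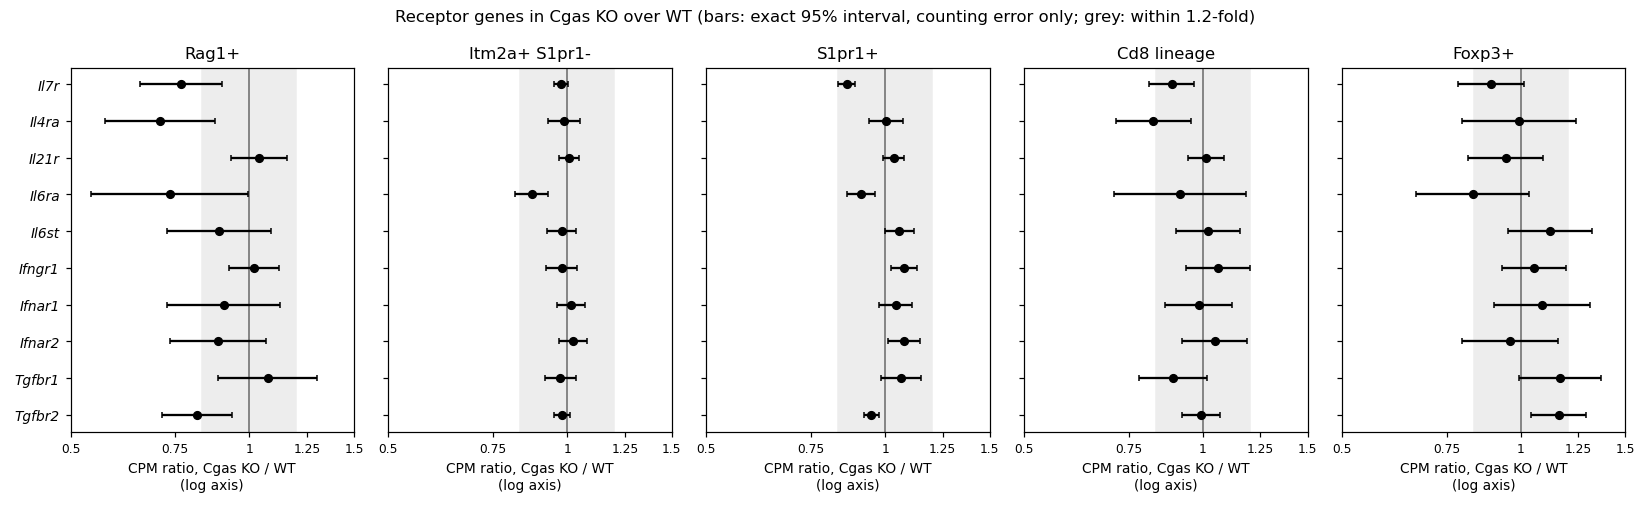
Ratios of CPM, Cgas KO over WT (horizontal axes, log scale), of the 10 receptor genes in each of 5 gates, with exact 95% intervals that cover counting error only and a grey band within 1.2-fold. Il7r, Il4ra, Il6ra and Tgfbr2 lie left of the band in Rag1+ barcodes, and in Itm2a+ S1pr1- and S1pr1+ barcodes every gene lies inside it.

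In the Cd8 lineage Il4ra alone was 1.2-fold lower, with 50.3 CPM in Cgas KO and 61.0 CPM in WT, a ratio of 0.825 (0.714 to 0.953). In that gate 7.36% of all genes were lower and 7.79% higher, so 1 member of 10 is close to the background. Il4ra stood at 0.814 there without S1pr1 and at 0.926 (0.600 to 1.43) with S1pr1. In Foxp3+ barcodes Il6ra was 1.2-fold lower, with 61.1 CPM in Cgas KO and 73.6 CPM in WT, a ratio of 0.830 (0.665 to 1.03) whose interval includes 1. The ratio was 0.581 without S1pr1 (0.354 to 0.929) and 0.935 with it (0.727 to 1.196). All genes gave 10.9% lower and 9.76% higher. Tgfbr2 had 286 CPM in Cgas KO and 247 CPM in WT, a ratio of 1.16 (1.04 to 1.29), and in Foxp3+ barcodes with Il2ra 247 CPM in Cgas KO and 174 CPM in WT, a ratio of 1.42 (1.16 to 1.72). Without Il2ra, a split chosen after the data were seen, it had 309 CPM in Cgas KO and 295 CPM in WT, a ratio of 1.05 (0.923 to 1.19). Over the alternatives the Tgfbr2 ratio in the whole gate ran from 0.891 to 1.19. Markers of other cells differed between the libraries in this gate. The dendritic cell list summed to 144 CPM in Cgas KO with 3 of 10 at 0 and to 307 CPM in WT with 1 of 10 at 0. The B cell list summed to 7.16 CPM in Cgas KO with 4 of 6 at 0 and to 19.7 CPM in WT with 0 of 6 at 0. Their part in the Foxp3+ values was not tested.

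The ratio of Cgas KO to WT was under 1 in all 5 gates for Il7r and for Il6ra, though the Il7r intervals in Itm2a+ S1pr1- (0.951 to 1.003) and Foxp3+ barcodes (0.783 to 1.01) and the Il6ra intervals in the Cd8 lineage and Foxp3+ barcodes include 1. Without cycling barcodes Il7r stood at 1.02 in Rag1+ barcodes, as given above, and thinned Il6ra at 1.13, and with gates at 2 UMIs Il7r stood at 1.06 in Foxp3+ barcodes. No member had a ratio over 1 in all 5. Interferon-stimulated genes had a median below 0 in every gate. In Rag1+ barcodes 9 of 18 measured were 1.2-fold lower and none higher, beside 14.4% of all genes lower and 12.9% higher. Of 30, 9 were lower and 1 higher in Itm2a+ S1pr1-, beside 5.01% and 6.05%, and in S1pr1+, beside 5.59% and 5.73%. In the Cd8 lineage 7 of 27 were lower and none higher, beside 7.36% and 7.79%. Foxp3+ barcodes had 13 of 25 lower and none higher, beside 10.9% and 9.76%. There the dendritic and B cell lists were lower in Cgas KO too. Medians of the interferon-stimulated genes were -0.26, -0.18, -0.19, -0.12 and -0.27 on the log2 scale in that order. In Rag1+ barcodes, Janus kinases and STATs (-0.25), SMAD pathway genes (-0.23) and partner chains (-0.23) had low medians too. Among the receptor genes for interferon, Ifnar1 had ratios of 0.905 to 1.09 and Ifnar2 of 0.885 to 1.08 over the 5 gates. On the log2 scale these are -0.14 to 0.12 and -0.18 to 0.11, lowest in Rag1+ barcodes for both. Ifngr1 had ratios of 0.979 to 1.08. Thinned to 2000 UMIs, Rag1+ barcodes gave 0.832 for Ifnar1, 0.651 for Ifnar2 and 0.905 for Ifngr1.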

How the data were processed

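The authors deposited unfiltered UMI counts per gene and barcode for both libraries. Per the file headers these come from Cell Ranger 8.0.1, while mm10, Cell Ranger 7.0 and Seurat 5.1.0 stand in the submitters' processing notes. Strand and isoforms cannot be read from these counts. The deposited T cell receptor contig tables were used only to count productive beta chains per barcode.

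From the counts, barcodes with at least 2000 UMIs, 500 genes and at most 10% mitochondrial UMIs were kept. They held 86.6% of 87310091 UMIs in Cgas KO and 88.5% of 84763106 UMIs in WT. UMIs were summed by gate and library and divided by the group's total to give CPM. Intervals are exact at 95% (Poisson for a level, conditional binomial for a ratio). A difference counted as apart past 1.2-fold between libraries and 1.5-fold between gates, and shares over all genes use genes with at least 100 UMIs in both groups together. No doublet caller was run. Barcodes with 2 or more beta chains, 9.58% in Cgas KO and 9.00% in WT, were kept and left out in an alternative. Their share was 17.4% in Cgas KO and 14.9% in WT Rag1+ barcodes, and 14.3% and 12.3% in Foxp3+ barcodes. In Itm2a+ S1pr1- barcodes it was 8.76% and 8.35%. Without them Il7r in Rag1+ barcodes stood at 87.6 CPM in Cgas KO and 111.5 CPM in WT. The members, gates and gene lists were chosen with earlier results of these data known, so they are no independent evidence. Besides all members, the text names up to 4 genes of each list farthest from a ratio of 1, and the 3 genes most like a member among those with at least 20 CPM in some group (pseudocount 1 CPM). Some genes that this rule names are not reported here. Il2rg was added to these as the shared chain, as was Ifngr2 in S1pr1+ barcodes, after their values were seen. The 13 alternatives cover filters, gates, scaling with edgeR 4.0.16 TMM and median-of-ratios factors, cycling, doublets, thinning, weighting and free RNA. The fold and the 100-UMI minimum were varied besides, and the effects are given at the end. Sums and intervals were made with pandas 2.3.3, scipy 1.17.1 and numpy 2.4.6 in Python 3.11.15, figures with matplotlib 3.10.9, and scaling factors in R 4.3.3.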

Additional observations from a re-analysis of the deposited data

How the results depend on the processing

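No paired analysis was possible because each genotype has 1 library and no replicate numbers are shared. In 13 alternatives, 1726 of 1950 ratios of members moved by less than their interval, 222 moved further and 2 that were past the fold changed sides of 1. Counting every ratio, 80 values of 42 ratios lay on the other side of 1 from their main value. The cause was not tested. Of the 2, Il7r in Rag1+ barcodes, Cgas KO over WT, was 1.02 without cycling barcodes, and Il6ra there was 1.13 when thinned to 2000 UMIs. Thinning moved 72 and 2-UMI gates moved 39. Of the 4 members 1.2-fold apart in Rag1+ barcodes, 1 was left without cycling barcodes, 2 with the mean over barcodes and 0 at a fold of 1.5. In Itm2a+ S1pr1- barcodes 1 was apart without cycling barcodes instead of 0, and in S1pr1+ barcodes 1 when thinned. In the Cd8 lineage, against 1, 0 were apart at a minimum of 1000 UMIs, 2 with 2-UMI gates, 2 when thinned and 0 at 1.5-fold. In Foxp3+ barcodes, against 1, 2 were apart with 2-UMI gates, 2 without cycling barcodes, 2 with the mean over barcodes, 3 when thinned and 0 at 1.5-fold. Over both libraries, a fold of 1.2 gave 14 instead of 9 of 20 in Itm2a+ S1pr1- over Rag1+, 8 instead of 5 in S1pr1+ over Itm2a+ S1pr1-, 17 instead of 9 in S1pr1+ over Rag1+ (14 when thinned), 11 instead of 4 in the Cd8 lineage and 10 instead of 6 in Foxp3+ over CD4 barcodes. S1pr1+ barcodes without Itm2a, chosen after the data were seen, gave 8 instead of 5. The ratio of Il7r in Itm2a+ S1pr1- over Rag1+ barcodes ran from 2.37 to 5.05 in Cgas KO and from 2.09 to 3.85 in WT. TMM scaling shifted every log2 ratio up by 0.22 in Cgas KO and 0.23 in WT in S1pr1+ over Rag1+, and by 0.16 in each in Itm2a+ S1pr1- over Rag1+ barcodes. Counting genes from 20 UMIs raised the share of all genes past the fold by over 1.5 times in 10 comparisons. Depth limits the smallest groups most: Il6ra rests on 74 UMIs in Rag1+ barcodes of Cgas KO and 112 in WT, and on fewer when thinned.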

Other observations

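Genes for the ligands of these receptors were barely read in the sorted cells. Of 16 listed, only Tgfb1 had at least 100 UMIs in each comparison. It stood at 108, 155 and 128 CPM along the Rag1+, Itm2a+ S1pr1- and S1pr1+ stages of Cgas KO and at 101, 167 and 146 CPM in WT. Il21, the ligand of the Il21r product, had 3.53 CPM in Itm2a+ S1pr1- and 1.04 CPM in S1pr1+ barcodes of Cgas KO, and 4.27 and 1.06 CPM in WT. Over all gates and both libraries, Il4 had 80 UMIs, Il15 40, Ifng 34, Il2 5, Il10 4, Il6 2 and Il7 1, and Ifnb1 had 0.

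Genes that IL-4 is known to induce in thymocytes did not move as 1 group. Of 10 listed, 7 were measured in the Cd8 lineage over CD4 barcodes of each library, where 1 was 1.5-fold higher and 3 lower in Cgas KO, beside 4.69% and 8.81% of all genes, and 2 and 3 in WT, beside 5.17% and 9.29%. Between the libraries at 1.2-fold, 1 of 5 was lower in Cgas KO Rag1+ barcodes, beside 14.4% of all genes, and none of 5 in the Cd8 lineage, beside 7.36%. In Itm2a+ S1pr1- barcodes 2 of 6 were lower, beside 5.01%, and in S1pr1+ barcodes 2 of 8, beside 5.59%. None was higher in these 4 gates. Foxp3+ barcodes went the other way, with 2 of 5 higher in Cgas KO, beside 9.76%, and none lower.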
